A study of Homo sapiens with 12 samples.

Results

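The genes described here are 39 members of the interferon and RNA sensing system, chosen by name from a list of interferon-stimulated genes and sensors of double-stranded RNA. They were found by symbol among 65969 gene identifiers in the deposited table, and all 39 were among the 24898 identifiers that passed the filter on low counts and were tested. They were divided by role into 5 RNA sensors with their adaptor, 6 enzymes that bind double-stranded RNA, 5 transcription factors, 4 IFIT proteins, 4 membrane restriction factors, 8 other antiviral effectors, and 7 genes of the ISG15 system with its PARP proteins and a helicase. The members were read across 12 libraries of total RNA from human embryoid bodies, which are aggregates that pluripotent stem cells form as they differentiate in suspension. The study asked what depletion of METTL14 changes in such aggregates. METTL14 is the RNA-binding partner of METTL3 in the enzyme that places N6-methyladenosine (m6A) on messenger RNA.

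Both lines used, H1 and MEL1, are long-established lines of human embryonic stem cells. In every group the cells had been transduced with a lentiviral vector for a doxycycline-inducible short hairpin RNA and selected with puromycin, so the control libraries carried a hairpin as well. SCR is the control hairpin, and KD1, KD2 and KD3 are 3 hairpins against METTL14. Aggregates of 500 cells per microwell were kept with doxycycline at 2 µg/ml and harvested after 10 days. H1 had 2 libraries each of SCR, KD1, KD2 and KD3. MEL1 had 1 SCR library, 2 KD1 libraries and 1 KD2 library. The labels do not say that libraries of a group came from separate cultures, so p-values here measure the spread between libraries, which may be technical. No uninduced or untransduced libraries were used here, and no library was treated with interferon.

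Cells detect double-stranded RNA in the cytoplasm with the helicases RIG-I (gene RIGI) and MDA5 (gene IFIH1), which signal through the mitochondrial adaptor MAVS to the transcription factors IRF3 and IRF7 and so to interferon genes. Secreted interferon acts on receptors that activate a complex with STAT2 and IRF9, which binds the interferon-stimulated response element in the promoters of effector genes. Pluripotent stem cells are known for a weak interferon response and for constitutive expression of some of these effectors, among them IFITM proteins. The m6A mark is known as a feature by which cells tell their own RNA from foreign RNA.

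The targeted gene was examined first as a check of the labels. METTL14 (ENSG00000145388, chromosome 4, positions 118685368 to 118715433 on the plus strand of GRCh38 in GENCODE 29) was at 29.8 and 43.8 CPM in H1 SCR, at 11.1 and 11.0 CPM in KD1, at 17.6 and 14.8 CPM in KD2 and at 8.89 and 13.5 CPM in KD3, where CPM is counts per 1000000 after scaling of library sizes (TMM). In MEL1 it was at 49.9 CPM in SCR, at 8.03 and 5.94 CPM in KD1 and at 8.95 CPM in KD2. Every knockdown library lay below every SCR library of its line, and METTL14 fell by 1.96 on the log2 scale over both lines (SE 0.23, edgeR adjusted p = 0.00266). The MEL1 SCR library was the shallowest, with 15963241 estimated counts, and the other 11 held 36609628 to 43508287. On unscaled totals, a gene with 3 counts stands at 0.188 CPM in the former and at 0.0690 to 0.0820 CPM in the latter, so low members are less precise in MEL1 SCR. The labels name the cell type as embryonic stem cells, whereas the samples were embryoid bodies of 10 days. The pluripotency gene POU5F1 was at 21.3 to 62.2 CPM in H1 and at 239.9 to 878.6 CPM in MEL1, and the neural gene PAX6 was at 95.8 to 224 CPM in H1 and at 0.204 to 2.92 CPM in MEL1. Markers of blood and immune cells, which could carry much of an interferon response, summed to 1.84 to 7.03 CPM over 8 genes. The leukocyte gene PTPRC reached at most 0.115 CPM and the myeloid gene SPI1 at most 0.136 CPM. In such bulk samples, fewer cells of a type and less RNA per cell cannot be told apart.

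Promoters are shown first because the members are a group defined by a shared response. RefSeq promoters on GRCh38.p14, from 250 bases before to 50 bases after the start of transcription, were matched by symbol for 30 of the 39 members. DHX58, IFIT2, IFITM2, IRF3, IRF7, MX2, OAS2, OASL and USP18 had no entry. The letters of the interferon-stimulated response element, written GAAA, any 2 bases, GAAA and searched on both strands with overlapping matches allowed, stood in the promoters of 21 of the 30 members, or 70% (exact 95% binomial interval 50.6% to 85.3%). Of all 35116 promoters in the table, 3.57% held them, and of 27305 gene symbols 4.38% had at least 1 promoter with them. Within the 150 bases before the start, 18 of the 30 members held the motif, against 1.74% of all promoters. A match is a description of letters and not evidence of a bound site.

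Sites are printed below for ISG15 and BST2, the 2 members called higher with hairpin KD1 in both lines, for IFIT genes that went different ways, for IFITM1, IFITM3 and HERC5, which differed between the lines, for OAS3 and IFI6, which were lower with KD3, and for the sensor gene IFIH1. Each line reads 5′ to 3′ on the strand of the gene, and capitals mark letters that belong to a match. TTTC in capitals is GAAA read on the opposite strand.
ISG15 at chr1:1013374-1013403, plus strand: catgcctcggGAAAGGGAAACCGAAActga
BST2 at chr19:17405741-17405770, minus strand: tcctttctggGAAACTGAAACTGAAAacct
IFIT1 at chr10:89392497-89392526, plus strand: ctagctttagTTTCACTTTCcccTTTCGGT
IFIT3, the second of its 2 promoters, at chr10:89332425-89332454, plus strand: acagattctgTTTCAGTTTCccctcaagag
IFIT5 at chr10:89414513-89414542, plus strand: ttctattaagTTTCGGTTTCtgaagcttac
IFITM1 at chr11:313990-314019, plus strand: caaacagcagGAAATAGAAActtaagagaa
IFITM3 at chr11:320893-320922, minus strand: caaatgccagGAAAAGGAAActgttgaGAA
HERC5 at chr4:88456984-88457013, plus strand: ctcattacagTTTCCTTTTCCTTTTCgatt
OAS3 at chr12:112938321-112938350, plus strand: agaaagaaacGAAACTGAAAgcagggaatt
IFI6 at chr1:27672329-27672358, minus strand: ggagagagggGAAAATGAAActctgcagag
IFIH1 at chr2:162318824-162318853, minus strand: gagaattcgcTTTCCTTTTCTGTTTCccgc

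In ISG15 and BST2 the printed stretch holds a pair of overlapping matches, which begin 113 bases before the start in ISG15 and 130 bases before it in BST2. The printed stretches of HERC5 and IFIH1 hold such a pair as well, and neither gene was called with KD1 against SCR. The 250 bases before the start are printed for ISG15 and BST2. They are also printed for IFI35, which was higher with KD1 in both lines too but holds no match in its window.
ISG15 at chr1:1013247-1013496, plus strand: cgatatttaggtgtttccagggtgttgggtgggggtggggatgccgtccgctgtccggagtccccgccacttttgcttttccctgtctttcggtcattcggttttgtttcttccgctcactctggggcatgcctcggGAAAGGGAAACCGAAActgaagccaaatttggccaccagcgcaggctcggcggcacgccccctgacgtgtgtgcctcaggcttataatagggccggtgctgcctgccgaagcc
BST2 at chr19:17405631-17405880, minus strand: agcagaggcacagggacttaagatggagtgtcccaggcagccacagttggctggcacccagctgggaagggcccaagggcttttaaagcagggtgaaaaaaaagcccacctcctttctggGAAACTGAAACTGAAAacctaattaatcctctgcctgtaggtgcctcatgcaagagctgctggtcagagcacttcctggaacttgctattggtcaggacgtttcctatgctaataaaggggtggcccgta
IFI35 at chr17:43006534-43006783, plus strand: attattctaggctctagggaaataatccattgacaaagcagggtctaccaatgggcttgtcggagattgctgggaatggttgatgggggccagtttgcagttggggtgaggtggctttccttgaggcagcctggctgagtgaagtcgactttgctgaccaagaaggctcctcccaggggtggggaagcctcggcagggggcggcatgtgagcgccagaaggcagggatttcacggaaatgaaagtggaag
ADAR, IRF1, IRF9, MAVS, OAS1, RIGI, STAT2 and TRIM25 were the other matched members without these letters in the window.

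Interferon ligands were close to undetected in all 12 libraries. Of 10 interferon genes examined, IFNA1, IFNA2, IFNB1, IFNK, IFNW1 and IFNG had no counts in any library. IFNE had 1 count, IFNL2 had 3 and IFNL3 had 2, each in 1 library. IFNL1 reached 8 counts in its highest library and was above 0 in 4. The receptors and kinases that respond to interferon were measured throughout, with IFNAR1 at 15.7 to 31.0 CPM and IFNAR2 at 9.63 to 18.1 CPM over the 12 libraries. Of the 39 members, 34 had counts in every library, and 32 had a mean of at least 1 CPM. TLR3, OAS1, OAS2, OASL, IFIT3, RSAD2 and IFI44 were the 7 below that mean.

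Across both lines, no member passed the test of knockdown against SCR. With edgeR's quasi-likelihood test and Benjamini-Hochberg adjustment over 24898 genes, 0 of the 39 members were called at an adjusted p under 0.05, where 0.213% of all genes tested were (0.0562% higher and 0.157% lower). The unadjusted p was under 0.05 for 1 member, and DESeq2 called 0 members. The median difference was 0.13 on the log2 scale over the members and 0.05 over all genes tested. Of the 39 members, 23 had a positive and 16 a negative estimate. A model of the 7 group means, which keeps differences between hairpins out of the spread, called 2 members, BST2 and IFI35, beside 9.95% of all genes tested.

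STAT2, which carries the signal of type I interferon receptors to the nucleus, was the 1 member on the same side of the SCR mean of its line in all 9 knockdown libraries. It was at 48.6 and 47.2 CPM in H1 SCR, at 56.3 and 60.3 CPM in KD1, at 53.5 and 49.7 CPM in KD2 and at 53.2 and 58.5 CPM in KD3. The MEL1 levels were 45.4 CPM in SCR, 61.3 and 48.1 CPM in KD1 and 61.0 CPM in KD2. The log2 difference over both lines was 0.24 (SE 0.11, edgeR adjusted p = 0.280), and 5.98% of all genes tested lay above the SCR mean in all 9 libraries (6.11% lay below it). The difference did not pass the test, with adjusted p between 0.0959 and 0.615 under the alternatives run.

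In H1, the average of the 3 hairpins against SCR called 0 of 39 members in edgeR, beside 7.16% of all genes tested (2.23% higher and 4.93% lower). The unadjusted p was under 0.05 for 2 members, DESeq2 called none, and the median log2 difference was -0.02 against 0.01 over all genes. Medians over the members differed in sign between hairpins. KD1 libraries had a median log2 ratio to the SCR mean of 0.14 and 0.12 over the members, KD2 libraries of 0.00 and 0.02, and KD3 libraries of -0.07 and -0.20. In MEL1 the medians were 0.27 and 0.18 in KD1 and 0.11 in KD2. Over all genes tested the same medians lay between -0.01 and 0.06.

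**Figure D1:**
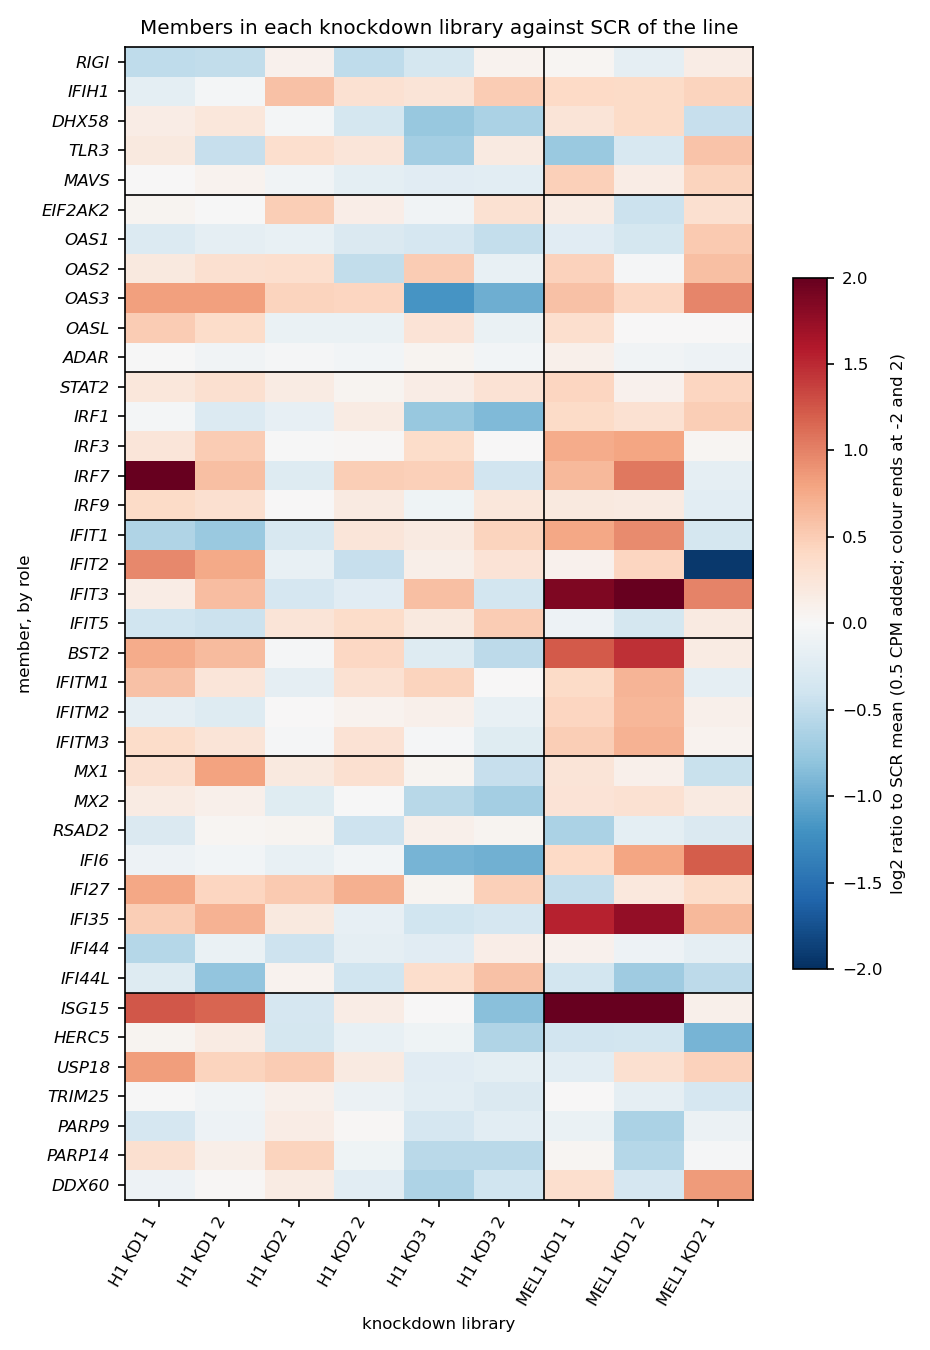
Each row is a member, ordered by role with lines between roles, and each column is a knockdown library, numbered within its group. Colour gives the log2 ratio to the mean of the SCR libraries of the line after 0.5 CPM was added, with red above and blue below; ISG15, BST2 and IFI35 are red in all 4 KD1 libraries, and OAS3 and IFI6 are blue in both KD3 libraries.

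None of the RNA sensors passed the test with any hairpin. RIGI, DHX58 (LGP2, a helicase that regulates the other sensors), IFIH1, the endosomal receptor TLR3 and the adaptor MAVS gave 0 of 5 calls in each of the 5 comparisons with SCR, over both lines, over H1, and for KD1, KD2 and KD3 in H1. They also gave 0 of 5 calls for KD1 in MEL1. At an unadjusted p under 0.05 there was 1 sensor, DHX58, in the KD3 comparison and 0 in the other 5. RIGI was at 7.30 and 11.7 CPM in H1 SCR, at 6.52 and 6.56 CPM in KD1, at 10.1 and 6.53 CPM in KD2 and at 7.28 and 9.99 CPM in KD3. MEL1 libraries stood at 11.2 CPM in SCR, at 11.5 and 9.90 CPM in KD1 and at 12.5 CPM in KD2. In H1 both KD1 libraries were below both SCR libraries but level with 1 KD2 library, and the other groups overlapped. KD1 against SCR had a log2 difference of -0.53 (SE 0.27) and an edgeR adjusted p = 0.241.

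IFIH1, which detects long double-stranded RNA, was at 1.74 and 3.51 CPM in H1 SCR and between 2.22 and 4.17 CPM in the 6 H1 knockdown libraries. For MEL1 the values were 1.29 CPM in SCR and 1.87, 1.84 and 1.96 CPM in the knockdown libraries. It lay above the SCR mean in 7 of 9 knockdown libraries, with a log2 difference over both lines of 0.37 (SE 0.27, edgeR adjusted p = 0.530). DHX58 was at 0.871 and 0.822 CPM in H1 SCR, 0.986 and 1.08 CPM in KD1, at 0.813 and 0.554 CPM in KD2 and at 0.295 and 0.372 CPM in KD3. Its KD3 libraries were the lowest of H1, and the KD3 difference of -1.33 on the log2 scale (SE 0.36) had an edgeR adjusted p = 0.0732. In MEL1, DHX58 was at 2.93 CPM in SCR, at 3.58 and 3.96 CPM in KD1 and at 2.00 CPM in KD2. KD1 was thus the highest and KD2 below SCR in each line.

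TLR3 ranged from 0.215 to 0.941 CPM in the 8 H1 libraries and from 0.818 to 2.79 CPM in the 4 MEL1 libraries, with KD1 below KD2 in MEL1. MAVS, the adaptor of RIG-I and MDA5, was at 112 and 114.5 CPM in H1 SCR, at 114.1 and 118 CPM in KD1, at 107 and 98.8 CPM in KD2 and at 97.1 and 97.8 CPM in KD3. It was at 67.0 CPM in MEL1 SCR, at 93.5 and 74.7 CPM in KD1 and at 91.5 CPM in KD2. MAVS thus lay above SCR in all 3 MEL1 knockdown libraries and in 2 of 6 of H1. The gap between lines in its response to KD1 and KD2, 0.44 on the log2 scale (SE 0.18, edgeR adjusted p = 0.240), did not pass the test.

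Enzymes that bind double-stranded RNA act on it directly and also answer to interferon. ADAR, which edits adenosine to inosine in double-stranded RNA, stood at 287 to 313 CPM in the 8 H1 libraries and at 365 to 419 CPM in the 4 MEL1 libraries. Its log2 difference with knockdown over both lines was -0.03 (SE 0.09). EIF2AK2 encodes PKR, a kinase that stops translation when it binds double-stranded RNA. It was at 33.5 and 47.2 CPM in H1 SCR and at 38.3 to 57.0 CPM in the H1 knockdown libraries, and these ranges overlapped. MEL1 libraries were at 39.5 CPM in SCR, at 44.3 and 29.2 CPM in KD1 and at 49.7 CPM in KD2. Neither gene was called with any hairpin.

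OAS3, 1 of the oligoadenylate synthetases that activate the ribonuclease RNase L, parted the H1 hairpins. It was at 1.28 and 2.80 CPM in SCR, at 3.99 and 3.98 CPM in KD1, at 2.95 and 2.91 CPM in KD2 and at 0.618 and 0.793 CPM in KD3. KD3 lay below SCR and both other hairpins lay above it. Against SCR the KD3 difference was -1.53 on the log2 scale (SE 0.36, edgeR adjusted p = 0.0496), while KD1 differed by 0.96 (SE 0.33, edgeR adjusted p = 0.0881). The difference between hairpins passed the test (edgeR adjusted p = 0.0114), and KD1 exceeded KD3 by a log2 difference of 2.49 (SE 0.36, edgeR adjusted p = 0.00594). In MEL1, which had no KD3 library, OAS3 was at 2.38 CPM in SCR, at 3.81 and 3.36 CPM in KD1 and at 5.2 CPM in KD2. The KD3 call against SCR was lost under a non-robust fit and without any 1 of 10 libraries, all but the first H1 SCR and the MEL1 SCR. OAS1, OAS2 and OASL reached at most 1.19, 0.591 and 0.278 CPM.

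Of the transcription factors, IRF3, which sensors activate by phosphorylation, stood highest with KD1. It was at 49.8 and 46.2 CPM in H1 SCR, at 57.1 and 68.4 CPM in KD1, at 47.5 and 48.9 CPM in KD2 and at 61.8 and 48.3 CPM in KD3. In MEL1 it was at 52.7 CPM in SCR, at 88.0 and 91.6 CPM in KD1 and at 53.9 CPM in KD2. KD1 lay above SCR and KD2 in both lines without overlap, whereas 1 KD3 library lay within the KD1 range. IRF7, which amplifies interferon production, was at 0.205 and 0.0967 CPM in H1 SCR, at 3.29 and 0.492 CPM in KD1, at 0.0428 and 0.415 CPM in KD2 and at 0.403 and 0 CPM in KD3. A single KD1 library was far above the other 7 of H1. The MEL1 levels were 3.27 CPM in SCR, 5.40 and 7.32 CPM in KD1 and 2.81 CPM in KD2. IRF1 was at 3.12 CPM in both H1 SCR libraries, between 2.51 and 3.58 CPM in KD1 and KD2 and at 1.64 and 1.46 CPM in KD3. IRF9, the DNA-binding partner of STAT2, ranged from 2.22 to 4.22 CPM in H1 and from 2.59 to 3.61 CPM in MEL1, and was not called.

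With hairpin KD1 a few effectors were higher and no member was called lower. Against H1 SCR, 3 of 39 members were called higher and 0 lower, where 4.25% of all genes tested were called higher, 6.83% lower and 11.1% in either direction. They were ISG15, BST2 and IFIT2. Against MEL1 SCR, 5 of 39 were called higher and 0 lower, where 5.66% of all genes tested were called higher, 2.74% lower and 8.39% in either direction. These were ISG15, BST2, IFI35, IFIT3 and IRF3. The balance of calls over all genes moved with the scaling. With upper-quartile scaling 1255 were higher and 1278 lower in H1 (1057 and 1701 with TMM) and 1040 higher and 864 lower in MEL1 (1409 and 681 with TMM). In MEL1 it was 1098 and 879 with median-of-ratios scaling, and it turned to 499 and 760 once a trend on GC content and length was removed. The MEL1 comparison assumes that its lone SCR library would vary as libraries of the other groups do. The median log2 difference of the members was 0.14 in H1 and 0.32 in MEL1, beside 0.00 and 0.05 over all genes tested.

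ISG15 encodes a ubiquitin-like protein that is attached to other proteins and also secreted. It was at 22.9 and 17.3 CPM in H1 SCR, at 48.1 and 45.7 CPM in KD1, at 15.8 and 22.3 CPM in KD2 and at 20.3 and 11.0 CPM in KD3. MEL1 libraries stood at 8.59 CPM in SCR, at 41.7 and 61.5 CPM in KD1 and at 9.29 CPM in KD2. The KD1 libraries lay above all others of their line, and KD2 and KD3 overlapped SCR in H1. ISG15 rose 2.33-fold in H1 (log2 1.22, SE 0.31, edgeR adjusted p = 0.0358). In MEL1 it rose by more (log2 2.59, SE 0.44, edgeR adjusted p = 0.0145).

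BST2 encodes tetherin, which holds budding virus at the cell surface. It was at 215.6 and 179 CPM in H1 SCR, at 332 and 305 CPM in KD1, at 195 and 262 CPM in KD2 and at 165 and 137 CPM in KD3. For MEL1 the values were 52.3 CPM in SCR, 124 and 145.5 CPM in KD1 and 58.9 CPM in KD2. As with ISG15, KD1 stood above every other library of the line. BST2 rose 1.61-fold in H1 (log2 0.69, SE 0.16, edgeR adjusted p = 0.0233) and 2.57-fold in MEL1 (log2 1.36, SE 0.22, adjusted p = 0.00903).

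IFI35, an interferon-induced leucine zipper protein, was at 2.23 and 2.15 CPM in H1 SCR, at 3.29 and 3.87 CPM in KD1, at 2.59 and 1.89 CPM in KD2 and at 1.53 and 1.64 CPM in KD3. In MEL1 it was at 1.64 CPM in SCR, at 5.68 and 6.71 CPM in KD1 and at 2.86 CPM in KD2. KD1 was again above every other library of the line. IFI35 rose 3.78-fold in MEL1 (log2 1.92, SE 0.36, edgeR adjusted p = 0.0144), while the H1 difference of 0.71 (SE 0.25) had an adjusted p = 0.0971. IRF3 rose 1.71-fold in MEL1 (log2 0.77, SE 0.18, edgeR adjusted p = 0.0269), and its H1 difference of 0.39 (SE 0.14) had an adjusted p = 0.0982. ISG15, BST2, IFI35, IFIT2, DHX58, IRF7 and MX2 were the 7 members whose KD1 libraries exceeded every other library of the line in both lines, where 5.10% of all genes tested did so. IFIT5 was the 1 member below every other library in both lines, beside 4.51% of all genes tested.

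**Figure D2:**
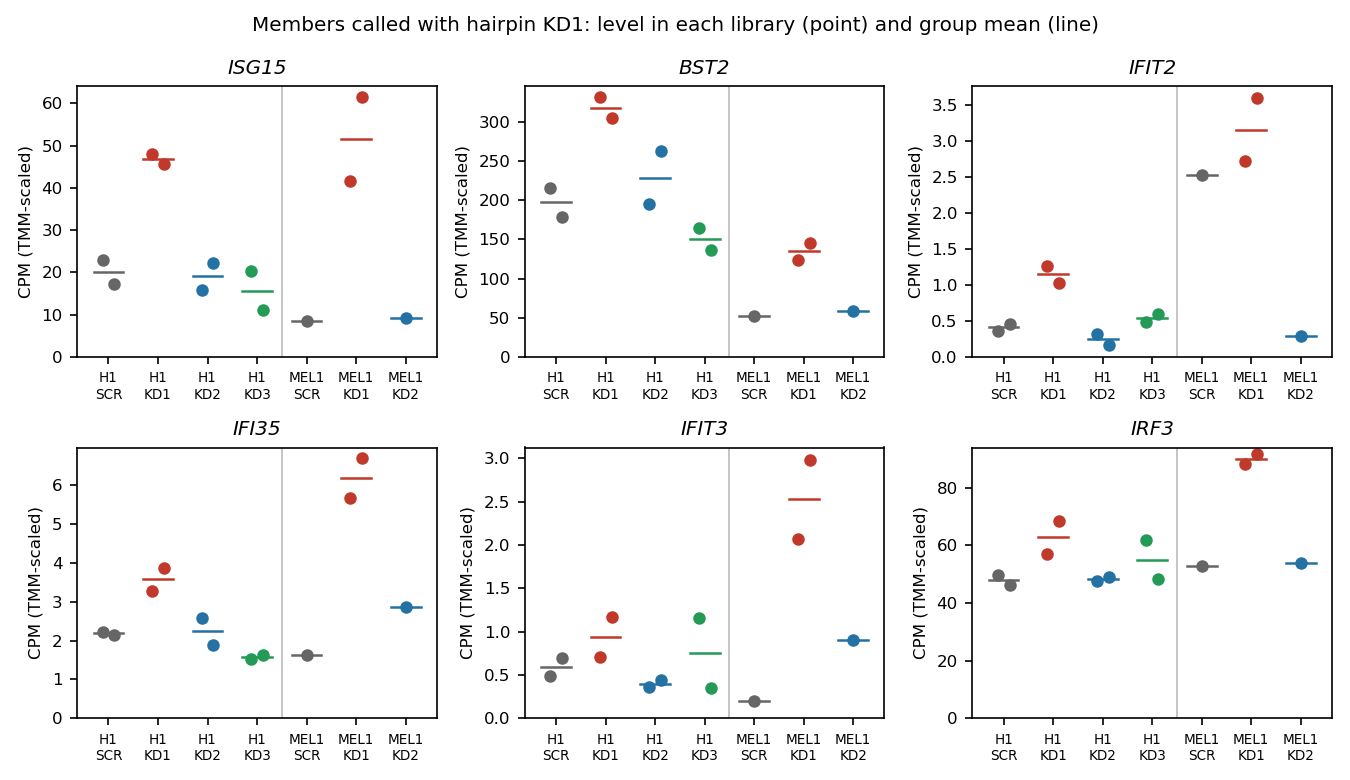
Level in CPM on scaled libraries, on linear axes from 0, of the 6 members called higher with KD1 against SCR in at least 1 line. Points are libraries, short lines are group means, and the vertical line parts H1 from MEL1; ISG15 stands at 45.7 and 48.1 CPM in H1 KD1 and at 11.0 to 22.9 CPM in the other H1 libraries.

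The IFIT proteins, which bind foreign RNA 5′ ends or assemble with one another, differed among themselves with KD1. IFIT2 was at 0.359 and 0.459 CPM in H1 SCR, at 1.26 and 1.03 CPM in KD1, at 0.321 and 0.162 CPM in KD2 and at 0.483 and 0.595 CPM in KD3. The MEL1 levels were 2.52 CPM in SCR, 2.71 and 3.59 CPM in KD1 and 0.292 CPM in KD2. In H1 the KD1 libraries stood above all others, while in MEL1 they stood close to SCR and the KD2 library stood far below both. IFIT2 rose in H1 KD1 by 1.48 on the log2 scale (SE 0.42, edgeR adjusted p = 0.0445), and in MEL1 the difference was 0.32 (SE 0.48, adjusted p = 0.718).

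IFIT3 was at 0.487 and 0.701 CPM in H1 SCR, at 0.708 and 1.17 CPM in KD1, at 0.364 and 0.438 CPM in KD2 and at 1.16 and 0.347 CPM in KD3, with overlap between groups. MEL1 libraries stood at 0.204 CPM in SCR, at 2.07 and 2.98 CPM in KD1 and at 0.900 CPM in KD2. The MEL1 SCR level was 3 estimated counts. IFIT3 rose in MEL1 KD1 by 3.61 on the log2 scale (SE 0.92, edgeR adjusted p = 0.0368), a size that rests on those few counts. The ratio of the 185 counts in both KD1 libraries to the 3 in SCR, at equal depth, was 12.2, with an exact 95% interval of 4.13 to 59.95 for counting error only. The call was lost without any 1 of 6 libraries, those of H1 KD1, H1 KD2 and MEL1 KD1.

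IFIT1 with KD1 stood on opposite sides of SCR in the lines. It was at 13.6 and 17.3 CPM in H1 SCR, at 10.04 and 9.02 CPM in KD1, at 12.3 and 18.4 CPM in KD2 and at 17.5 and 21.2 CPM in KD3, so that KD1 was the lowest group of H1. For MEL1 the values were 14.7 CPM in SCR, 25.6 and 28.9 CPM in KD1 and 11.4 CPM in KD2, so that KD1 was the highest. Against SCR the differences were -0.70 in H1 (SE 0.21, edgeR adjusted p = 0.0563) and 0.89 in MEL1 (SE 0.27, adjusted p = 0.0657). The KD1 minus KD2 difference was -0.69 in H1 (SE 0.21) and 1.26 in MEL1 (SE 0.27), with edgeR adjusted p = 0.163 and 0.0177. The difference between these was 1.95 (SE 0.34, edgeR adjusted p = 0.0216), in a test that called 1.45% of all genes tested, and IFIT1 was the 1 member it called.

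IFIT5 was at 9.81 and 11.5 CPM in H1 SCR, at 7.96 and 7.78 CPM in KD1, at 12.8 and 13.9 CPM in KD2 and at 12.3 and 15.4 CPM in KD3. In MEL1 it was at 9.20 CPM in SCR, at 8.54 and 7.14 CPM in KD1 and at 10.5 CPM in KD2. KD1 was the lowest group in both lines, but neither difference from SCR passed the test (edgeR adjusted p = 0.148 in H1 and 0.569 in MEL1). The 4 IFIT genes are neighbours on chromosome 10 and similar in sequence, and an estimate has to share out their common reads, which makes the value of a single IFIT gene uncertain.

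A comparison of KD1 with KD2 over both lines needs no SCR library and so does not rest on the shallow MEL1 control. Its MEL1 side rests on 1 KD2 library instead. The comparison called 6 of 39 members, 5 higher and 1 lower with KD1, where 9.93% of all genes tested were called, 4.21% higher and 5.73% lower. With upper-quartile scaling 1366 genes were higher and 1189 lower, against 1047 and 1426 with TMM. The log2 difference of IFIT2 was 2.82 (SE 0.36) in edgeR, with adjusted p = 0.00129. That of ISG15 was 1.89 (SE 0.26) and that of BST2 was 0.83 (SE 0.13), with edgeR adjusted p = 0.00378 and 0.00431. IFI35 was higher by 0.89 (SE 0.20, edgeR adjusted p = 0.0211) and IRF3 by 0.56 (SE 0.11, adjusted p = 0.0121). IFIT5 was lower, at -0.59 (SE 0.14, edgeR adjusted p = 0.0260). The IFI35 call was lost without the second library of H1 KD1, H1 KD2 or MEL1 KD1. METTL14 itself differed by -0.46 (SE 0.19, edgeR adjusted p = 0.159), which did not pass the test over all genes. In both lines, however, every KD1 library lay below every KD2 library in METTL14. The part of unequal depletion in the results for members was not tested.

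**Figure D3:**
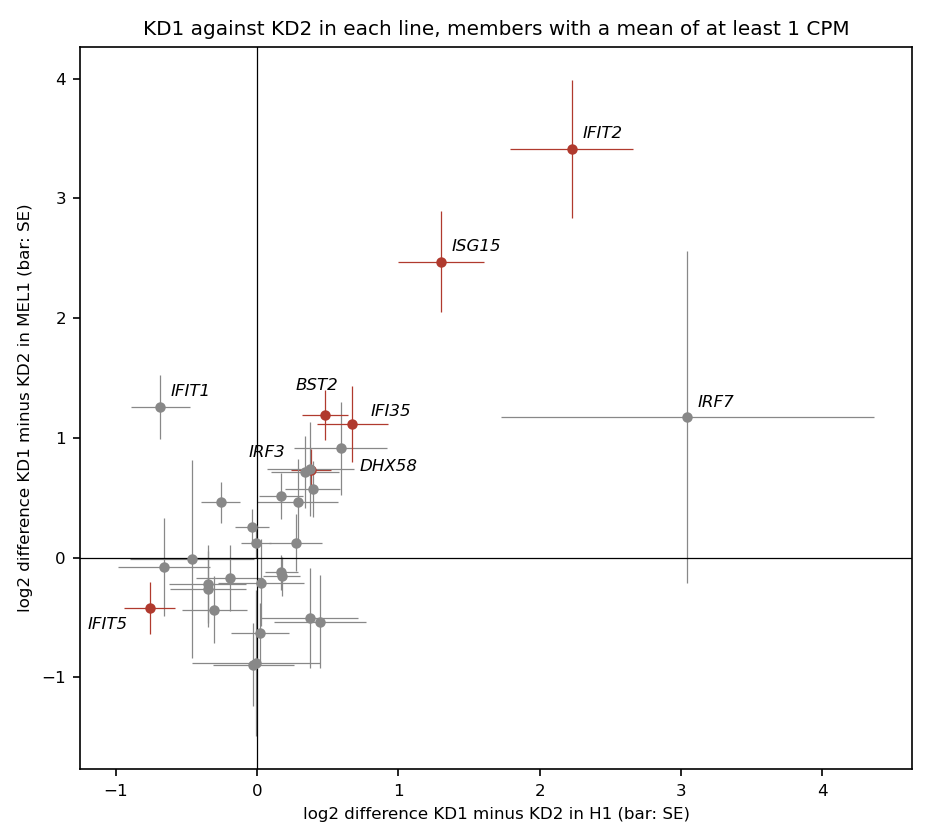
Log2 difference KD1 minus KD2 in H1 (horizontal) and in MEL1 (vertical) for the 32 members whose mean was 1 CPM or more, with bars of 1 SE. Red points are the 6 members called over both lines; ISG15 lies at 1.30 and 2.47, and IFIT1 lies at -0.69 and 1.26, on opposite sides of 0.

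Within lines the same contrast called fewer members. In H1, KD1 exceeded KD2 in IFIT2 by 2.23 (SE 0.43, edgeR adjusted p = 0.0445), the 1 member called beside 0.851% of all genes tested. In MEL1, where KD2 is 1 library, 5 members were called, all higher with KD1, beside 8.43% of all genes tested. They were IFIT2 at 3.41, ISG15 at 2.47, IFIT1 at 1.26, BST2 at 1.19 and IRF3 at 0.74 on the log2 scale.

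The 3 hairpins differed from one another in H1 for 6 of 39 members (edgeR F-test), beside 3.54% of all genes tested. These were ISG15, BST2, IFIT1, IFIT2, IFIT5 and OAS3. IFIT1 lost this call in 11 and IFIT5 in 12 of 19 alternatives, among them upper-quartile scaling, a non-robust fit and removal of the GC trend, and IFIT2 lost it in 8. KD1 against KD3 gave the most calls, 9 members beside 4.63% of all genes tested. OAS3 (2.49), DHX58 (1.62), ISG15 (1.58), IFI35 (1.17), BST2 (1.08), IFI6 (0.92) and MX2 (0.82) were higher with KD1 on the log2 scale, and IFIT1 (-1.02) and IFIT5 (-0.81) were lower. KD2 against KD3 gave 1 call, OAS3, beside 1.01%. Against SCR, KD2 gave 0 calls among the members in edgeR (0 at an unadjusted p under 0.05, and 0 in DESeq2), beside 1.54% of all genes tested. KD3 gave 2 calls, both lower, beside 1.79% of all genes called lower and 2.98% called in either direction. The 3 comparisons with SCR share the H1 SCR libraries.

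IFI6, a small mitochondrial and endoplasmic reticulum protein with antiviral activity, was the other member that fell with KD3. It was at 12.1 and 8.75 CPM in H1 SCR, at 9.66 and 9.98 CPM in KD1, at 9.35 and 10.03 CPM in KD2 and at 5.27 and 5.13 CPM in KD3. Both KD3 libraries were below every other H1 library, and the difference from SCR was -1.004 on the log2 scale (SE 0.21, edgeR adjusted p = 0.0319). In MEL1 the order differed, with 4.57 CPM in SCR, 6.19 and 8.26 CPM in KD1 and 11.2 CPM in KD2. The call for IFI6 in KD3 was lost without the first H1 SCR library or any 1 library of H1 KD1 or H1 KD3.

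The remaining effectors gave no call against SCR in edgeR with the main settings. MX1 and MX2, dynamin-like GTPases that block incoming virus, were among them. MX2 was at 7.02 and 7.37 CPM in H1 SCR, at 8.09 and 7.78 CPM in KD1, at 5.97 and 7.15 CPM in KD2 and at 4.73 and 4.29 CPM in KD3. MX1 ranged from 1.22 to 3.63 CPM over the 12 libraries. IFI27 was above the SCR mean in 8 of 9 knockdown libraries, at 0.205 to 2.17 CPM, and did not pass the test. RSAD2 (viperin) and IFI44 reached at most 0.338 and 0.384 CPM. Among the ISG15 system, HERC5 (its ligase), USP18 (its protease), TRIM25 (which ubiquitinates RIG-I), PARP9, PARP14 and the helicase DDX60 gave no call against SCR in H1 or MEL1. USP18 was at 1.33 and 1.21 CPM in H1 SCR and at 2.65 and 1.90 CPM in KD1, but at 1.29 CPM in MEL1 SCR and at 1.05 and 1.75 CPM in KD1. PARP9 lies head to head with its partner gene DTX3L, so reads at their shared end may be uncertain.

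The pathway around the members gave few calls with knockdown. Of 11 genes for interferon receptors and their kinases and STAT proteins, JAK1, a receptor kinase, was called in the H1 average, at -0.37 (SE 0.10, edgeR adjusted p = 0.0450), beside 7.16% of all genes tested, and none was called for any single hairpin. Of 13 tested genes that signal from sensors, 3 were called with KD1 in H1, beside 11.1% of all genes tested, and 2 in the H1 average, IKBKE (-0.70) and TRIM56 (0.49). TICAM1, the adaptor of TLR3, was higher by 1.84 (SE 0.33, edgeR adjusted p = 0.00898) and TRIM56, a ubiquitin ligase, by 0.62 (SE 0.15, adjusted p = 0.0272), whereas the kinase gene IKBKE was lower, at -0.91 (SE 0.24, adjusted p = 0.0330). In MEL1 none of the 13 was called with KD1.

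Of 22 tested further genes known to respond to interferon, 4 were called with KD1 in H1, beside 11.1% of all genes tested, with PARP10 (0.91), PML (0.61) and LGALS3BP (0.42) higher and PLSCR1 (-0.74) lower on the log2 scale. In MEL1, PARP10 (2.42) and UBE2L6 (0.55), the conjugating enzyme of ISG15, were called higher with KD1, beside 5.66% of all genes tested. NMI was at 1.13 and 1.43 CPM in H1 SCR and at 0.198 to 0.773 CPM in the 6 H1 knockdown libraries. It was called lower in the H1 average (-1.39) and with KD3 (-2.22), and PARP12 was called lower with KD3 (-1.77). In KD1 against KD2 over both lines, 4 of the 22 were called, beside 9.93% of all genes tested, with PARP12 higher and SP110, LGALS3BP and LY6E lower. For LGALS3BP and LY6E, the KD1 and KD2 libraries of H1 overlapped. The median of the 22 was 0.02 with KD1 in H1 and -0.07 in MEL1. Of 9 negative regulators, SAMHD1, which degrades nucleotides, was higher with KD1 in MEL1 (0.90) and against KD2 over both lines (0.51). The latter came from MEL1, with 154 and 139 CPM in KD1 and 63.7 CPM in its lone KD2 library. In H1, SAMHD1 was lower with KD1, at 35.3 and 35.7 CPM against 43.4 and 36.8 CPM in KD2. NLRX1 was called higher with KD1 in MEL1 and SOCS3 lower with KD1 than with KD2, so that 2 of the 9 were called in each of these comparisons, beside 8.39% and 9.93% of all genes tested.

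Other measures moved with KD1 as well. In H1 the rank correlation of a library's deviation from the mean of its line with transcript GC content, over 15601 genes, was 0.30 and 0.57 in KD1 and -0.49 to 0.20 in the other 6 libraries. In MEL1 it was 0.37 and 0.42 in KD1, -0.57 in SCR and -0.05 in KD2. These correlations are across genes of shared libraries and are given as a description. ISG15 has a GC content of 64.1%, above 95.3% of these genes, IFI35 of 57.8% and BST2 of 56.6%, while IFIT2 has 42.1% and IFIT5 37.4%. After a smooth trend on GC content and length was taken out of each library, KD1 against SCR gave log2 differences of 0.99 for ISG15, 0.67 for BST2 and 1.63 for IFIT2 in H1. In MEL1 it gave 1.74 for ISG15, 0.94 for BST2, 1.43 for IFI35 and 3.89 for IFIT3, all called in edgeR. IRF3 in MEL1 fell to 0.13 and was no longer called, and IFIT5 in KD1 against KD2 went to -0.22 and was no longer called. KD1 against KD2 gave 1.53 for ISG15, 0.60 for BST2, 3.14 for IFIT2, 0.65 for IFI35 and 0.32 for IRF3 after the same correction.

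Cell type markers were set beside the KD1 results in the same way. The 8 blood and immune markers summed to 4.13 and 5.10 CPM in H1 SCR, 2.65 and 3.56 CPM in KD1 and 1.84 and 1.94 CPM in KD2. In MEL1 they summed to 4.57 CPM in SCR, 6.42 and 7.03 CPM in KD1 and 2.90 CPM in KD2, so KD1 was above KD2 in both lines but below SCR in H1. Of 5 tested blood markers 1, CSF1R, was called higher with KD1 than with KD2, by 1.61 (SE 0.36), and RUNX1 was called lower with KD1 in H1, at -1.81 (SE 0.50). Markers of other lists were called in KD1 against KD2 over both lines too, beside 4.21% of all genes tested higher and 5.73% lower. DPPA4 (0.52), DNMT3B (0.67), RAX (1.34) and the epithelial gene EPCAM (0.55) were higher. PAX6 (-1.05), TEK (-1.34), VWF (-1.53), PDGFRA (-0.70), AFP (-3.01), TTR (-5.31), TFAP2A (-0.65) and VTCN1 (-1.52) were lower. The MEL1 side of these calls rests on 1 KD2 library. In H1, the KD1 and KD2 libraries lay apart in the stated direction for EPCAM, TEK, VWF and VTCN1. They overlapped for DPPA4, DNMT3B, RAX, PAX6 and PDGFRA, and TFAP2A was higher with KD1 there. AFP and TTR reached at most 0.121 and 0.342 CPM in H1. With KD1 in H1, 5 of 9 pluripotency markers were called lower, beside 6.83% of all genes tested, among them NANOG (-2.002), TDGF1 (-1.88) and POU5F1 (-1.28). Of 8 neural markers 2, PAX6 (0.90) and RAX (0.98), were called higher, beside 4.25%. Among the uncalled markers, DPPA4, L1TD1, SOX1, DCX and NES lay below both SCR libraries in both KD1 libraries. SOX2 and SIX3 lay above them, and the others overlapped. The pluripotency markers summed to 2022 and 1909 CPM in H1 SCR and 2124 and 1892 CPM in KD1. The neural markers summed to 994 and 965 CPM in SCR and 966 and 1019 CPM in KD1. With KD1 in MEL1, 1 of the 9 was called lower, ZFP42 (-0.61), and 2 of the 8 higher, TUBB3 (0.96) and SIX3 (2.43). The 6 mesenchyme markers summed to 223 and 301.5 CPM in H1 SCR and 378 and 386 CPM in KD1. In MEL1 they summed to 233 CPM in SCR, 416 and 391.5 CPM in KD1 and 522 CPM in KD2. COL1A1 and COL1A2 made up most of these sums, and the other markers did not all move with them. With KD1 in H1, COL1A1 was called higher (1.36), while LUM was at 0.885 and 0.703 CPM against 1.51 and 1.81 CPM in SCR. With KD1 in MEL1, COL1A2 (0.75) and COL3A1 (2.08) were called higher and TWIST1 (-2.14) lower. The 6 endothelial markers summed to 169 and 174 CPM in H1 SCR and to 74.6 to 97.2 CPM in the H1 knockdown libraries. In MEL1 they summed to 153 CPM in SCR, 79.4 and 76.3 CPM in KD1 and 194 CPM in KD2. These sums were mostly 1 gene in H1, since KDR, the endothelial receptor for VEGF, was at 153 and 157 CPM in H1 SCR. In MEL1 KD2, KDR was at 91.9 CPM and VWF at 91.0 CPM. PECAM1, CDH5 and EMCN reached at most 1.77, 2.10 and 0.818 CPM in any library. KDR was called lower over both lines (-0.89, SE 0.16, edgeR adjusted p = 0.0363). The part of these cell types in the results for members was not tested.

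Several KD1 calls were lost when a single library was left out. In H1, 0 to 4 members were called when each library was left out in turn. ISG15 lost its call without any 1 library of H1 SCR or H1 KD1, BST2 without the second H1 SCR or either KD1 library, and IFIT2 without any 1 of 8 libraries and in DESeq2. In MEL1, 1 member, BST2, was still called without the second MEL1 KD1 library, and 3 were without the first. Against KD2, ISG15, BST2, IFIT2 and IRF3 kept their calls under all 18 alternatives run, and 4 to 8 members were called without any 1 library. These alternatives could not leave out the lone MEL1 KD2 library, which the comparison needs.

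Many members differed between the lines. MEL1 minus H1, averaged over SCR, KD1 and KD2, called 24 of 39 members in edgeR, 15 higher and 9 lower in MEL1, where 49.1% of all genes tested were called, 23.0% higher and 26.2% lower. The median log2 difference was 0.21 over the members and -0.09 over all genes. By role, calls were made for 5 of 5 sensors with their adaptor, 2 of 6 double-stranded RNA enzymes, 3 of 5 transcription factors, 1 of 4 IFIT genes, 4 of 4 membrane factors, 4 of 8 other effectors and 5 of 7 of the ISG15 group. The MEL1 pluripotency markers summed to 3024 to 5526 CPM against 1892 to 2315 CPM in H1. Line, degree of differentiation and cell makeup cannot be told apart here.

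**Figure D4:**
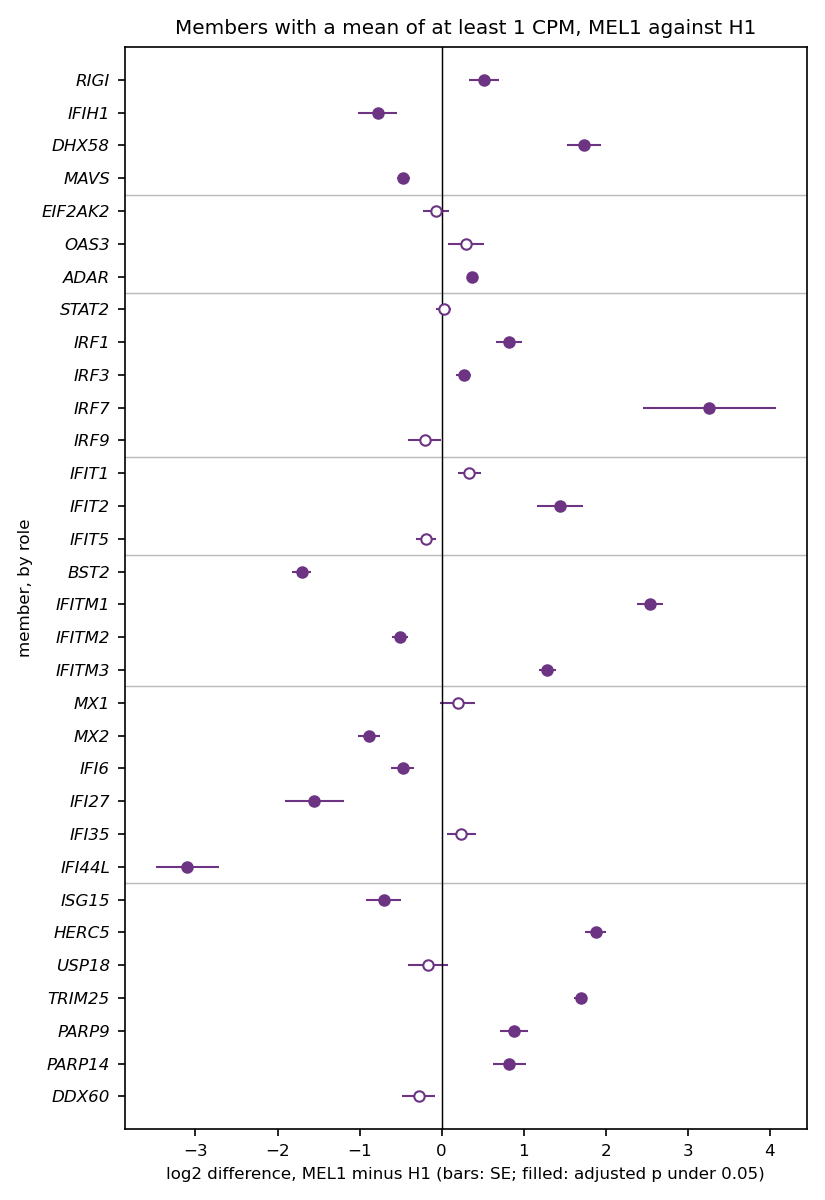
Log2 difference MEL1 minus H1 over SCR, KD1 and KD2 for the 32 members whose mean was 1 CPM or more, by role, with bars of 1 SE. Filled points have an adjusted p under 0.05; the sensors RIGI and DHX58 lie to the right at 0.51 and 1.73, and IFIH1 and MAVS lie to the left at -0.78 and -0.47.

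Sensors were split between the lines. DHX58 was higher in MEL1 by 1.73 on the log2 scale (SE 0.21, edgeR adjusted p = 4.06e-05), with the 4 MEL1 libraries at 2.00 to 3.96 CPM and the 8 H1 libraries at 0.295 to 1.08 CPM. TLR3 was higher by 1.30 (SE 0.38, edgeR adjusted p = 0.0143) and RIGI by 0.51 (SE 0.18, edgeR adjusted p = 0.0344), with overlapping libraries, and the RIGI call was lost without any 1 of 5 libraries. MAVS was lower in MEL1, at -0.47 (SE 0.08, edgeR adjusted p = 0.000632), with MEL1 at 67.0 to 93.5 CPM and H1 at 97.1 to 118 CPM. IFIH1 was lower, at -0.78 (SE 0.24, edgeR adjusted p = 0.0181). Helicases that sense RNA were thus higher and lower in the same line.

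The IFITM genes, whose proteins block fusion of virus with the cell membrane, differed in direction. IFITM1 was at 45.0 to 82.9 CPM in the 8 H1 libraries and at 294 to 531 CPM in the 4 MEL1 libraries, a difference of 2.54 (SE 0.16, edgeR adjusted p = 1.27e-06). IFITM3 was at 69.97 to 106 CPM in H1 and at 192 to 311 CPM in MEL1, a difference of 1.29 (SE 0.10, edgeR adjusted p = 1.38e-06). IFITM2 was lower in MEL1, at -0.51 (SE 0.10, edgeR adjusted p = 0.00101). The 3 genes lie side by side on chromosome 11, are similar in sequence, and the IFITM2 gene model overlaps IFITM1, so reads may be divided between them. BST2 was lower in MEL1, at -1.71 (SE 0.12, edgeR adjusted p = 5.82e-07), although KD1 raised it in both lines.

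In the ISG15 group, TRIM25 was at 26.1 to 34.5 CPM in H1 and at 89.5 to 114 CPM in MEL1, a difference of 1.70 (SE 0.08, edgeR adjusted p = 2.48e-08). HERC5 was at 4.19 to 7.45 CPM in H1 and at 16.5 to 32.0 CPM in MEL1, a difference of 1.88 (SE 0.12, edgeR adjusted p = 3.87e-07). PARP9 (0.88) and PARP14 (0.83) were higher in MEL1 as well. ISG15 was lower in the average over SCR, KD1 and KD2, at -0.71 (SE 0.22, edgeR adjusted p = 0.0225), yet its KD1 libraries overlapped between the lines, and the call was lost without the first H1 SCR or the first H1 KD1 library.

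**Figure D5:**
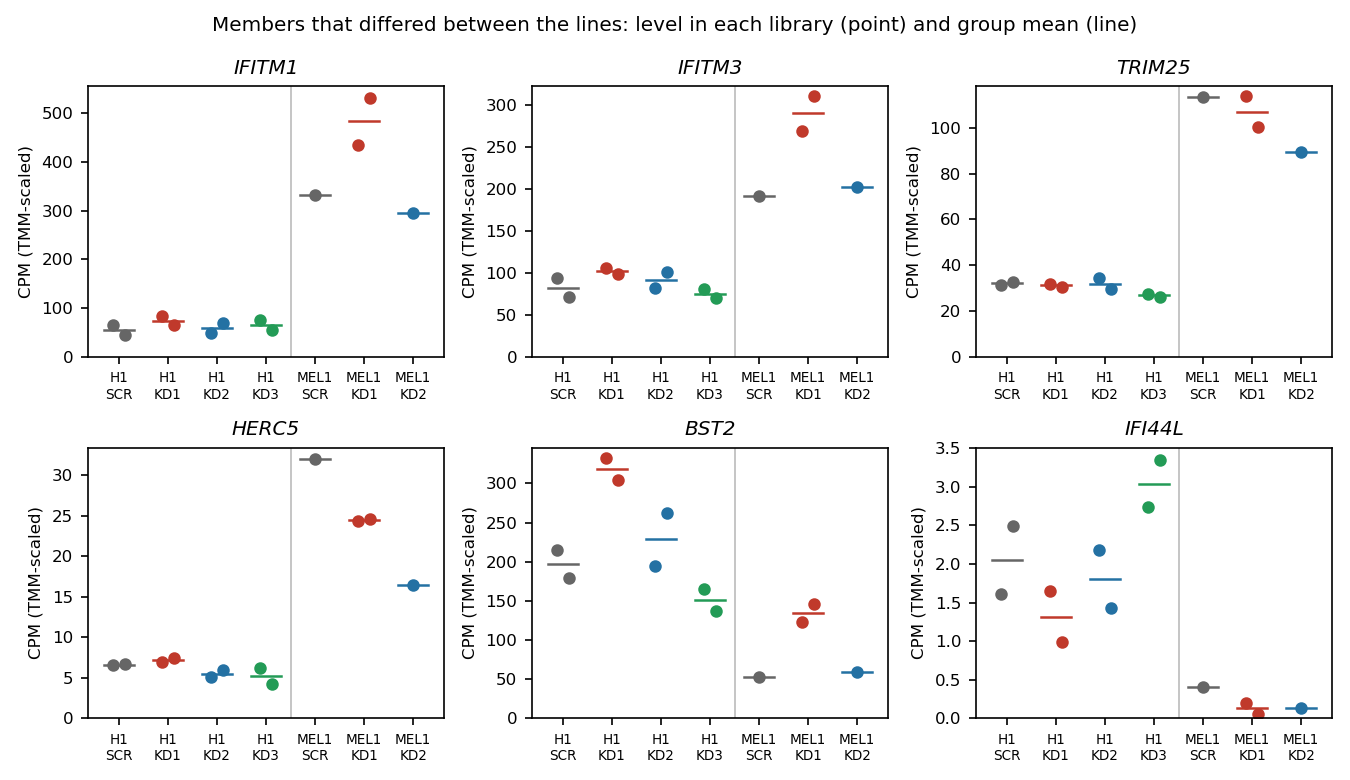
Level in CPM on scaled libraries, on linear axes from 0, of 6 members called between the lines. Points are libraries, short lines are group means, and the vertical line parts H1 from MEL1; IFITM1, IFITM3, TRIM25 and HERC5 are higher in all 4 MEL1 libraries than in any H1 library, and IFI44L is lower.

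Of the other effectors, IFI44L was at 0.984 to 3.35 CPM in H1 and at 0.0574 to 0.409 CPM in MEL1, a difference of -3.10 (SE 0.39, edgeR adjusted p = 5.63e-05). IFI27 (-1.55), MX2 (-0.88) and IFI6 (-0.48) were also lower in MEL1. Among the transcription factors, IRF7 (3.27), IRF1 (0.82) and IRF3 (0.27) were higher, and so were IFIT2 (1.44), ADAR (0.37) and OAS1 (2.52). The IRF7 call was lost without the second H1 SCR library and the IRF3 call without any 1 of 5 libraries. All 4 MEL1 libraries lay above all 8 H1 libraries for 10 members, beside 12.3% of all genes tested, and below them for 3 members, beside 13.0%. The effect of KD1 and KD2 against SCR was not shown to differ between the lines for any member (edgeR, 0 of 39 called beside 0.598% of all genes tested, 0.454% higher in MEL1, 5 at an unadjusted p under 0.05, and 0 in DESeq2).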

How the data were processed

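RNA-seq of 12 libraries was used. The authors deposited estimated counts per gene; trimming with fastp and quantification with kallisto are named per the submitters' processing notes, without versions, and the genome build and annotation are not given in the sources used here. Kallisto shares reads between similar genes by probability, so values of close paralogs depend on that step. Estimated counts were rounded, filtered with filterByExpr over 7 groups (24898 of 65969 identifiers kept) and scaled by TMM. Differences were tested with edgeR's robust quasi-likelihood test, with Benjamini-Hochberg adjustment over all genes tested and a call at an adjusted p under 0.05. The comparison over both lines had line and knockdown as terms, and the others were contrasts of 7 group means, so that groups of 1 library borrow the spread of the rest. R 4.3.3, edgeR 4.0.16, limma 3.58.1 and DESeq2 1.42.0 were used, and the tests were tested on simulated data. Symbols, positions, GC content and length come from GENCODE 29 on GRCh38, with GC content for 90.6% of genes tested and all 39 members. Depth was 15963241 to 43508287 estimated counts per library, and intervals cover counting error only.

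Libraries were grouped by the labels, and replicate numbers only name libraries. The members were picked by name, and they and all lists were chosen with earlier results of these data known. MEL1 KD1 against SCR, KD1 against KD2 and MEL1 against H1 were added after the data were seen. Genes were named by rule: METTL14, members called in any comparison, members on 1 side of SCR in all 9 knockdown libraries whose mean was 1 CPM or more, the 2 members of highest mean CPM per role, and defining markers. The rule also covered list genes called over both lines, in the H1 average or between lines. Not all of those called in the H1 average or between lines are named. List genes called with a single hairpin or in KD1 against KD2, further cell type markers, and the IRF1, IRF9, MX1, USP18, IFNAR1 and IFNAR2 values were added after their values were seen. Alternatives were other scalings, filters, DESeq2, a non-robust fit, removal of the GC and length trend, and leaving out each library. The values of 1 gene of the pathway lists are not reported here.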

Additional observations from a re-analysis of the deposited data

Results flagged for a closer look

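IRF7 was at 3.29 CPM in the first H1 KD1 library, while the nearest of the other 5 H1 knockdown libraries was at 0.492 CPM. That gap was 0.850 of the range of the 6 libraries, above the critical value of 0.625 in Dixon's test. Of 30 results examined in this way, chance alone sets apart about 1 in 20.

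IFIT1 differed between the lines in its KD1 minus KD2 difference, which was 1.95 higher in MEL1 than in H1 on the log2 scale (SE 0.34, edgeR adjusted p = 0.0216). The MEL1 side of it rests on 1 KD2 library. The same test called 361 of 24898 genes, or 1.45%.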

How the results depend on the processing

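No paired analysis was possible because the labels give no replicate numbers. No difference of a called member changed sign under the alternatives run. Counts of calls did change, and the cause was not tested. Over both lines, 53 genes were called; the count was 80 without a filter on low counts, 87 with a filter at 1 CPM, 1246 with DESeq2, 100 with the GC and length trend removed, 2478 with group means (2 members) and 175 in H1 by itself. With no filter, the genes called were 3256 in the H1 average (1 member), 4160 for H1 KD1 (7 members), 1745 for KD2, 2290 for KD3, 1369 for the line difference in knockdown, 3800 for MEL1 KD1 (8 members), 4360 for KD1 against KD2 (12 members) and 3384 between H1 hairpins (11 members). With DESeq2 they were 2696 in the H1 average, 1149 for KD2, 1675 for KD3, 751 for the line difference in knockdown and 2224 between H1 hairpins. With the GC and length trend removed they were 2975 in the H1 average (1 member), 1165 for KD2 (1 member), 2003 for KD3 (6 members), 519 for the line difference in knockdown (273 higher and 246 lower, 1 member), 1259 for MEL1 KD1 and 1912 between H1 hairpins, and KD1 against KD2 called 10 members. The line difference in knockdown (113 genes higher and 36 lower in MEL1) called 88 genes with median-of-ratios scaling (57 and 31), 97 with upper-quartile scaling (56 and 41), 95 with a filter at 1 CPM and 82 with a non-robust fit, which left 1 member for KD3. On unscaled totals the members summed to 1189 CPM in H1 KD2, 1339 in MEL1 SCR and 1750 in MEL1 KD1, and with median-of-ratios scaling to 1523 in MEL1 SCR.

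With each library left out in turn, genes called ranged from 11 (without the first H1 SCR library) to 280 (without the second MEL1 KD1) over both lines, 123 (without the second H1 SCR) to 1842 in the H1 average, 206 (without the first H1 KD1) to 2766 for H1 KD1, 64 to 400 for KD2, 108 to 881 for KD3, 34 to 148 for the line difference in knockdown, 426 (without the second MEL1 KD1) to 2382 for MEL1 KD1, 967 (without the first H1 KD1) to 2764 for KD1 against KD2 and 154 (without the first H1 KD1) to 1139 between H1 hairpins. Members called ranged from 0 to 4 for H1 KD1, 0 to 2 for KD3, 1 to 5 for MEL1 KD1, 4 to 8 for KD1 against KD2 and 0 to 7 between H1 hairpins, with 0 without either H1 KD1 library. Leaving out the MEL1 SCR library or the MEL1 KD2 library was not run where a comparison needs that library. In the MEL1 SCR library 3 counts are 0.188 CPM on the unscaled total, and 0.204 CPM after scaling, which limits IFIT3, OAS1, OAS2 and OASL there.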

Other observations

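Other genes that respond to interferon also differed between the lines. Of 22 such genes tested, 15 were called between MEL1 and H1, beside 49.1% of all genes tested, 11 higher and 4 lower in MEL1, with a median log2 difference of 0.31 against -0.09 over all genes. TRIM22, an antiviral ubiquitin ligase, was higher by 3.27 (SE 0.14, edgeR adjusted p = 1.21e-08), and PLSCR1, a phospholipid scramblase, by 2.98 (SE 0.13, edgeR adjusted p = 2.25e-08). HERC6 (3.30) and NMI (3.17) were higher as well, and PARP10 (-1.13), PML (-0.58) and UBE2L6 (-0.57) were lower. LY6E, the other gene called lower, was at 8.73 to 22.2 CPM in H1, at 0 in the MEL1 SCR and both KD1 libraries and at 2.05 CPM in MEL1 KD2. Of 11 receptor, kinase and STAT genes, 7 were called, beside the same 49.1%, with STAT3 (0.59), JAK1 (0.50), IFNAR1 (0.50) and IFNAR2 (0.43) higher and the interferon gamma receptor gene IFNGR2 (-0.80) lower in MEL1. These genes were named because they were called between the lines.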
